A study of Mus musculus with 3 samples.

Results

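The genes described here encode the proteins of the mitochondrial ribosome. They were chosen by symbol, as all genes of the deposited value table whose symbol starts with Mrpl or Mrps followed by a digit, without pseudogenes. The rule found 76 genes among 23185 with a gene symbol. Of these, 48 carry a large subunit symbol (Mrpl) and 28 a small subunit symbol (Mrps). Each was read by 1 probe set on all 3 arrays, and the rule used no measured value. The cells were mouse LT-HSC (long-term haematopoietic stem cells) sorted from marrow, the rare cells that renew all blood lineages. The sort took lineage-negative cells positive for Kit and Sca and for CD150, and negative for Flk2 and CD48. All 3 groups were kept overnight in StemSpan SFEM medium and then given 0 Gy (unirradiated), 0.02 Gy (low dose) or 2.5 Gy (high dose) of gamma radiation, with RNA taken 2 hours later. The labels name no strain, age, sex or number of animals. Every group was a lone array, which leaves the differences without a measure of replicate error, and no test could be run. In such bulk samples, fewer cells of a type and less RNA per cell cannot be told apart.

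Mitochondria keep a small genome of their own, and the few messenger RNAs it encodes, all for subunits of the respiratory chain and ATP synthase, are translated by a dedicated ribosome inside the organelle. Its ribosomal RNAs come from the mitochondrial genome, while every one of its proteins is encoded in the nucleus, made in the cytosol and imported. The small subunit binds the messenger RNA and decodes it; the large subunit joins the amino acids and releases the chain through an exit tunnel at the inner membrane. Part of the proteins descend from bacterial ribosomal proteins and part occur only in mitochondria. Long-term stem cells rely on respiration little while quiescent, and they need mitochondrial protein synthesis when they enter division.

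Marker genes of the sorted cells and of other blood cells were set against 1 common level. This describes the arrays and does not identify the cells, since probe sets differ in response and markers of other lineages also passed it. Sets of 3 values are given in the order unirradiated, low dose, high dose throughout. All 8 measured stem cell markers (Kit, Slamf1, Procr, Mecom, Hlf, Fgd5, Meis1 and Mllt3) lay above the level minimum, set at the median over the named genes of each gene's mean on the 3 arrays (4.55 on the log2 scale). Of the genes selected against, Cd48 lay below it and Flt3 (Flk2) just above, at 4.60, 4.95 and 4.93 on the unirradiated, low-dose and high-dose arrays. All 4 measured lymphoid markers lay below it, while 2 of 3 erythroid and 4 of 4 megakaryocyte markers lay above. Among 7 myeloid markers, 5 were higher on each irradiated array than on the unirradiated array, with list medians of 4.96, 5.45 and 5.08. Over all named genes, 47.4% were higher on the low-dose and 46.6% on the high-dose array than on the unirradiated array. S100a8 was at 5.57, 6.87 and 6.81 and S100a9 at 6.82, 7.94 and 8.38. Ngp (4.23, 3.32 and 3.31) and Ltf (4.31, 3.80 and 4.27) were lower on both irradiated arrays, and both lay below the level minimum by their mean. The part of the marker genes in the differences below was not tested. All values are the deposited log2 values, and differences are between arrays for the same probe set, since levels of different probe sets cannot be compared. The array medians were 4.60, 4.54 and 4.55. Of the 76 genes, 58 had a mean at or above the level minimum (36 large and 22 small subunit symbols), and 13 lay below it on every array.

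**Figure D1:**
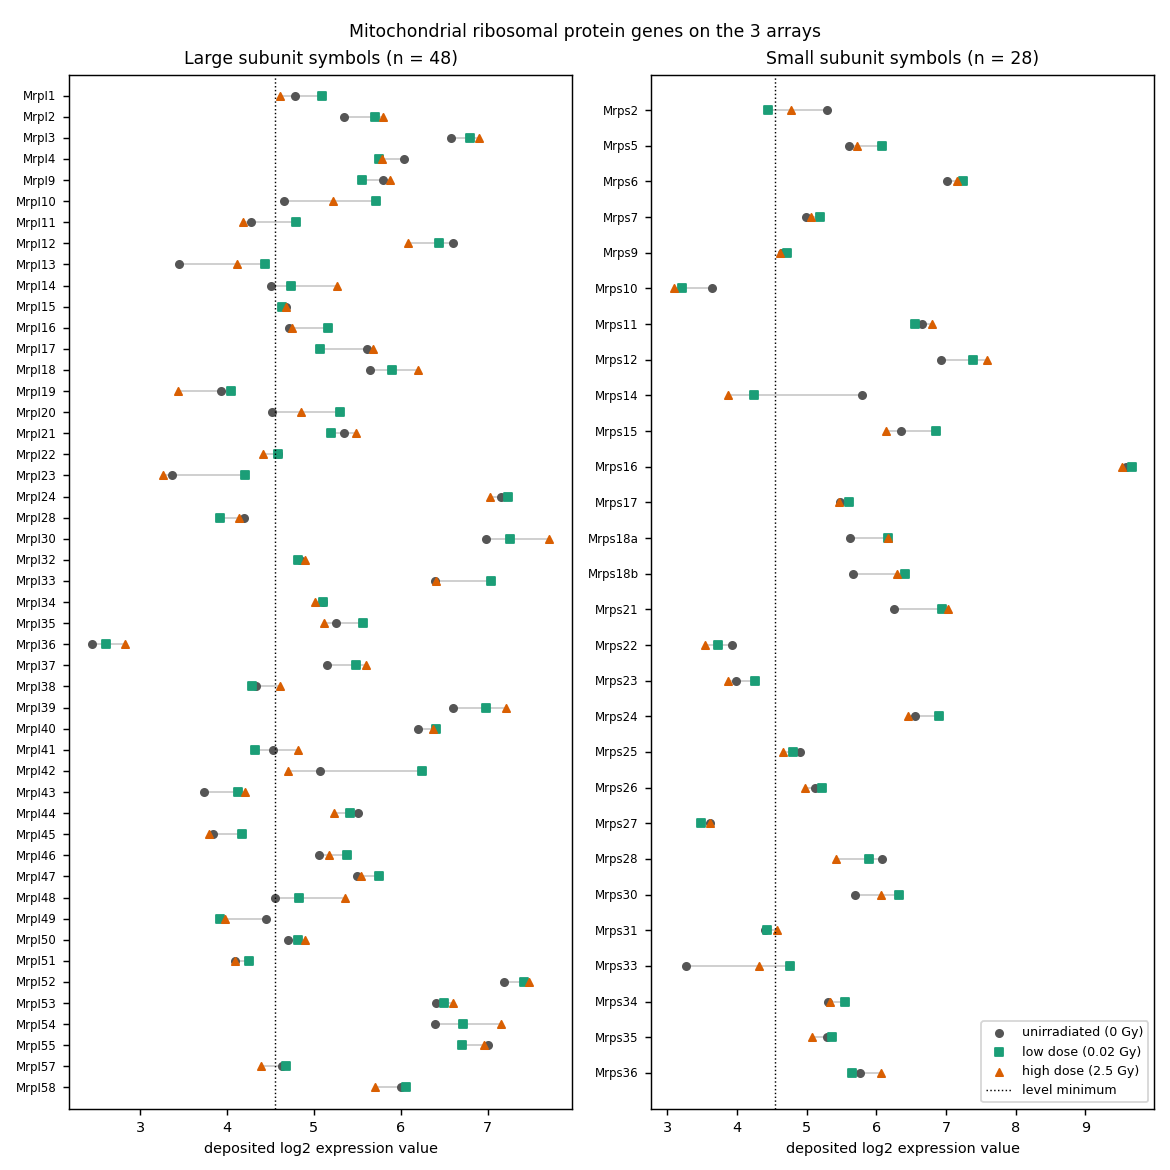
Deposited log2 value (horizontal axis) of each mitochondrial ribosomal protein gene on the unirradiated (circle), low-dose (square) and high-dose (triangle) array, 1 array per dose, with large subunit symbols on the left and small subunit symbols on the right; the dotted line is the level minimum of 4.55. For most genes the 3 values lie close together, with a median range of 0.41 over the 76 genes, while Mrps14, Mrps33 and Mrpl42 stand out by their width.

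The arrays differed by little for most of these genes and by much for a few. The range over the 3 arrays had a median of 0.43 among the 58 genes past the level minimum, against 0.37 over all 11593 such genes. The widest ranges belonged to Mrps14, Mrpl42 and, below the minimum by its mean, Mrps33. Mrps14, a protein of the head of the small subunit with a bacterial counterpart, was at 5.80 on the unirradiated array, 4.25 after 0.02 Gy and 3.88 after 2.5 Gy. Its differences from the unirradiated array were −1.55 and −1.92, and both irradiated values lay below the level minimum. Mrps33, a head protein found only in mitochondria, went the other way, at 3.28 unirradiated, 4.76 after 0.02 Gy and 4.32 after 2.5 Gy (differences of 1.48 and 1.04). Only its low-dose value lay above the level minimum. Mrpl42, a mitochondria-specific protein of the large subunit, was at 5.06, 6.24 and 4.70, so its low-dose value stood above both others. Mrpl10, which anchors the stalk that recruits elongation factors, was at 4.65, 5.72 and 5.22, lowest on the unirradiated array.

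The reference sequence just before the start sites of these 4 genes is shown because they had the largest differences. It was taken from RefSeq's promoter table (GRCm38.p6), which held 73 promoters for 67 of the 76 genes. Each stretch is the 150 bases before the start, 5′ to 3′, at chr1:160195065-160195214, plus strand (Mrps14), chr6:39810937-39811086, minus strand (Mrps33), chr10:95501950-95502099, minus strand (Mrpl42) and chr11:97041432-97041581, plus strand (Mrpl10). Capitals mark the letters of 4 motifs, searched on both strands. They are TGCGCA (core of the NRF1 site), CCGGAAG (ETS factors such as GABP), AAGATGG (YY1) and CACGTG (E-box).
Mrps14: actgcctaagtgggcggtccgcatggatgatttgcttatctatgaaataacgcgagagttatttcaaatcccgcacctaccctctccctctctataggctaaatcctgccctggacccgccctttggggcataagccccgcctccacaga
Mrps33: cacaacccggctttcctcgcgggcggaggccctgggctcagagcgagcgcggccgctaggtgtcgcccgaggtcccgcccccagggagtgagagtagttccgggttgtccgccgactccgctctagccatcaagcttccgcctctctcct
Mrpl42: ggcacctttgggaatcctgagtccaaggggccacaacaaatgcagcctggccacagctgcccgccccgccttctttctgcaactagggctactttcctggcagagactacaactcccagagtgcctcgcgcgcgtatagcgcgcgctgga
Mrpl10: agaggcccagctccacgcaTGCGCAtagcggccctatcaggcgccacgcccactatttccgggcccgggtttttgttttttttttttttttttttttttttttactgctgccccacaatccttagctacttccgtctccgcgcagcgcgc
Mrpl10 holds the NRF1 letters 131 bases before its start. The other 3 stretches hold none of the motifs, although the wider table window, which runs 50 bases into the gene, holds the ETS letters for Mrps33 and the YY1 letters for Mrpl42.

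At 0.02 Gy, most mitochondrial ribosomal protein genes had slightly higher values than on the unirradiated array. Of the 58 genes past the level minimum, 42 were above 0, where the share over all such genes was 54.2%, and the median difference was 0.21 (a 1.16-fold difference) against 0.04 over all genes. Over all 76 members the median was 0.18, and 54 were above 0, against 47.4% of all 23185 named genes. The median was 0.22 for large subunit symbols (26 of 36 above 0) and 0.16 for small subunit symbols (16 of 22 above 0). The median of the 58 stayed above 0 under each scaling tried, at 0.11 after quantile normalization, 0.12 after loess and 0.28 after median centring. The medians of all genes past the minimum were then −0.00, −0.00 and 0.11. As deposited, the low-dose array was also higher for genes of high level: among the 2319 named genes of the top level decile the median was 0.19, and 71.9% were above 0. That median was 0.01 after quantile normalization and after loess, and 0.25 after median centring. Among genes between the lower and upper quartile of the members' level (4.56 to 6.05) the deposited values gave a median of −0.01, with 49.0% above 0. That range leaves out the members with means above 6.05, which the median of the 58 includes. The 2 medians therefore do not compare genes of the same levels.

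Few of these genes reached a 2-fold difference at 0.02 Gy. Past the level minimum they were Mrpl42 (1.18) and Mrpl10 (1.06), at least 2-fold higher where 1.33% of all genes were, and Mrps14 (−1.55), at least 2-fold lower where 1.14% were. Over all 76 members, with no level minimum, 3 were at least 2-fold higher (Mrps33 in addition) and 1 lower, where 1.12% and 1.17% of all named genes were. At 1.5-fold, 7 of the 58 were higher (background 7.5%) and 2 lower (background 4.72%). The others among the 7 were Mrpl20, which has a bacterial counterpart, Mrpl33, Mrps18b, Mrps21 and Mrps30. Mrpl20 was at 4.52, 5.30 and 4.85 (unirradiated, low and high dose), and Mrpl33, a small conserved protein of the large subunit, at 6.39, 7.04 and 6.41. For both, the low-dose value was highest. Mrps21, a platform protein of the small subunit, was at 6.26, 6.95 and 7.03, high on both irradiated arrays. Mrps2, a conserved protein between the head and body of the small subunit, was at 5.29, 4.44 and 4.77, so it was lower on both irradiated arrays (−0.85 and −0.52).

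At 2.5 Gy the median difference from the unirradiated array was nearer 0, while single genes were as far from it as at 0.02 Gy or farther in several cases (Mrps14, Mrpl14 and Mrpl48 among them). The median difference was 0.07 against 0.02 over all genes past the level minimum, and 35 of 58 were above 0 (background 53.4%). The median was 0.10 for large subunit symbols (24 of 36 above 0). For small subunit symbols it was 0.01 (11 of 22 above 0), which turned to −0.01 after quantile normalization and −0.00 after loess. No member past the minimum was at least 2-fold higher (background 1.15%), and Mrps14 alone was at least 2-fold lower (background 0.578%). Over all 76 members 42 were above 0 (background 46.6%) and the median was 0.04. Mrps33 was then 1 gene at least 2-fold higher (background 0.94%) and Mrps14 1 gene lower (background 0.638%). At 1.5-fold, 8 of the 58 were higher (background 6.07%) and 2 lower (background 3.44%). Since both dose comparisons use the same unirradiated array, a gene that stood apart on that array appears in both.

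The 8 genes at least 1.5-fold higher at 2.5 Gy came from both subunits. Mrpl48, of the central protuberance where the subunits meet the transfer RNAs, was at 4.55, 4.82 and 5.36. Mrpl14, a conserved protein at the interface between the subunits, was at 4.51, 4.74 and 5.27, and the mitochondria-specific Mrpl54 at 6.40, 6.72 and 7.15. In all 3 the low-dose value lay between the others. Mrpl30 was at 6.98, 7.26 and 7.71 and Mrpl39 at 6.60, 6.98 and 7.21, in the same order of arrays; both are named after their values were seen. Mrps12, the protein of the decoding centre, was at 6.93, 7.38 and 7.59, again in that order. The last of the 8, Mrps18b and Mrps21, were at 5.67, 6.41 and 6.29 and at 6.26, 6.95 and 7.03; for Mrps18b the low-dose value was the highest. Besides Mrps14, Mrps28 was at least 1.5-fold lower, at 6.08, 5.90 and 5.42.

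**Figure D2:**
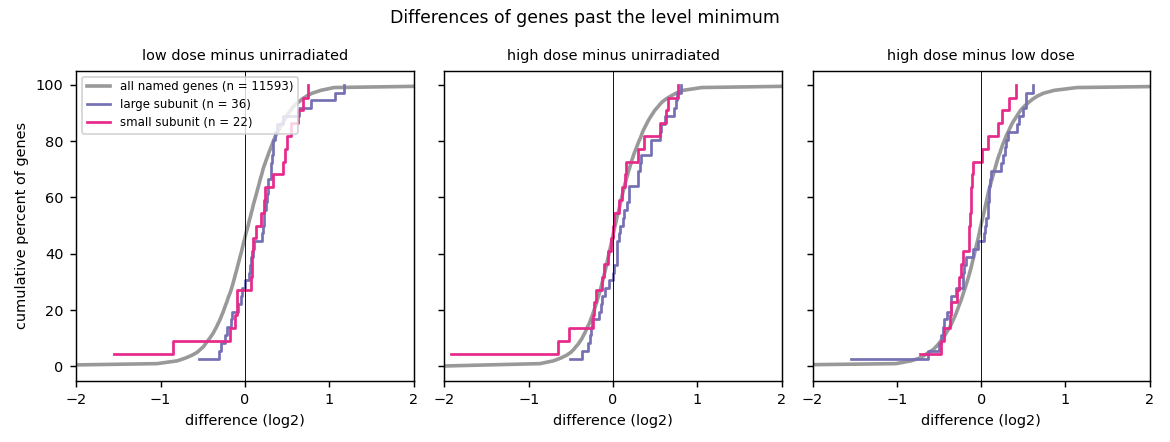
Cumulative percent of genes (vertical axis) by difference in log2 value (horizontal axis) in each comparison, for large subunit symbols (36 genes), small subunit symbols (22) and all 11593 named genes past the level minimum. At the low dose both subunits lie to the right of all genes through the middle of the plot, with medians of 0.22 and 0.16 against 0.04; in high dose minus low dose the small subunit lies to the left (median −0.14).

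The subunits parted when the irradiated arrays were compared with each other. In high dose minus low dose, 16 of 22 small subunit symbols were below 0 with a median of −0.14, while 20 of 36 large subunit symbols were above 0 with a median of 0.05. Over all genes past the level minimum 49.4% were above 0 and the median was −0.00. The large subunit median exceeded the small by 0.19. This difference was 0.19 after quantile normalization and loess, and 0.10 with means in place of medians, where the large subunit mean was −0.03. With 1 array per dose the error of this difference is unknown. Assigning proteins by where they sit in the solved mitochondrial ribosome gave 0.23. That assignment moved Mrps30 and Mrps18a to the large subunit, left out Mrps36 and added proteins with other names. In the dose comparisons with the unirradiated array the subunit medians differed by 0.06 (low dose) and 0.10 (high dose). The low-dose value turned to −0.04 after quantile normalization and loess.

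Only Mrpl42 was at least 2-fold lower at the high than at the low dose (−1.54; background 1.06%), and none was 2-fold higher (background 1.44%). Over all 76 members these counts were again 1 and 0 (background 0.996% and 1.22%), and 33 were above 0 (background 49.9%). At 1.5-fold, Mrpl33 (−0.63) and Mrps15 (−0.72) were also lower (background 5.67%), and Mrpl17 alone was higher (0.61; background 5.74%). Mrps15, a conserved small subunit protein, was at 6.36, 6.85 and 6.13. Mrpl17, which lies near the exit of the peptide tunnel, was at 5.62, 5.07 and 5.68, so the low-dose value stood below both others. Mrps24, which lines the entry of the messenger RNA, was at 6.56, 6.89 and 6.46. Over the 58 genes, the unirradiated array held the highest value for 9 (background 29.6%), the low-dose array for 27 (background 37.4%) and the high-dose array for 22 (background 33%). Of the small subunit symbols 13 of 22 were highest on the low-dose array. Of the large subunit symbols 14 of 36 were highest there and 17 on the high-dose array. After quantile normalization the counts over the 58 were 11, 23 and 24, and those over all 11593 genes past the minimum were 4048, 3932 and 3613.

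**Figure D3:**
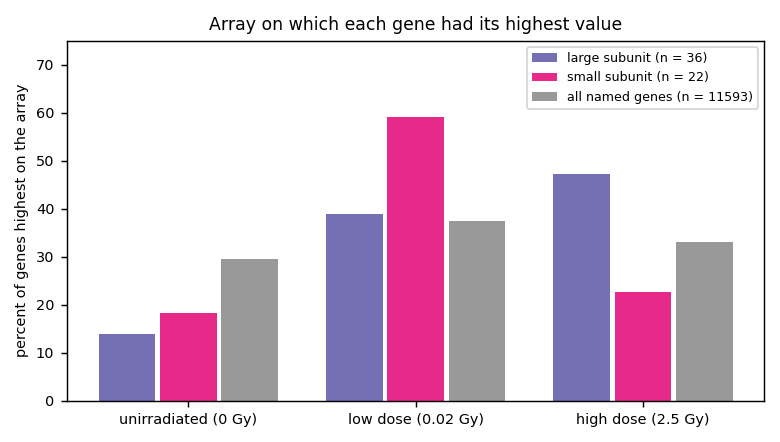
Percent of genes past the level minimum (vertical axis) whose highest value was on each array, for large subunit symbols (36), small subunit symbols (22) and all named genes (11593). The small subunit bar is tallest on the low-dose array (59.1%, against 37.4% of all genes), and the large subunit bar on the high-dose array (47.2%, against 33%).

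By place in the ribosome, the 3 stalk genes differed in direction from the unirradiated array but were all lower at the high than at the low dose (−0.50 for Mrpl10, −0.60 for Mrpl11 and −0.35 for Mrpl12), where 49.9% of all named genes were above 0. Mrpl12, the mobile stalk protein that contacts elongation factors and also binds the mitochondrial RNA polymerase, was at 6.60, 6.44 and 6.08, lowest at the high dose. Mrpl10, its anchor, was highest at the low dose as given above. Mrpl11, at the stalk base, was at 4.28, 4.79 and 4.19, above the level minimum only at the low dose. Around the exit tunnel, 5 of 6 genes were above 0 at 0.02 Gy (background 47.4%) and 2 of 6 at 2.5 Gy (background 46.6%), but Mrpl22, Mrpl23 and Mrpl45 lay below the level minimum by their mean. Mrpl22, whose product forms part of the tunnel wall, was at 4.58, 4.59 and 4.41. Mrpl23, at the tunnel exit, was at 3.37, 4.20 and 3.26, below the minimum on each array. Mrpl24, next to it, was at 7.15, 7.23 and 7.02, a narrow spread. Mrpl45, which ties the ribosome to the inner membrane, was at 3.83, 4.17 and 3.79, also below the minimum throughout. Of the central protuberance genes, all 5 measured (Mrpl18, Mrpl38, Mrpl40, Mrpl46 and Mrpl48) were above 0 at the high dose (background 46.6%), from 0.12 to 0.80 with a median of 0.29, and 4 of 5 at the low dose (background 47.4%). Of these 5, Mrpl38 lay below the level minimum by its mean. With so few genes the counts by place are a description only.

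Some large subunit proteins have roles beyond peptide synthesis. Mrpl44, whose product has a ribonuclease-like fold and whose human counterpart is mutated in infantile cardiomyopathy, was at 5.50, 5.42 and 5.23. Mrpl41, also linked to apoptosis, was at 4.53, 4.32 and 4.82, around the level minimum. Mrpl58, a peptidyl-tRNA hydrolase built into the ribosome that frees stalled chains, was at 5.999, 6.06 and 5.70, lowest at the high dose. Mrpl4 was at 6.04, 5.75 and 5.78 and Mrpl55 at 7.01, 6.70 and 6.96. For these 2 genes, each with a bacterial counterpart, the unirradiated value was the highest.

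On the small subunit, the decoding and messenger RNA entry proteins Mrps5, Mrps12 and Mrps24 were all above 0 at the low dose (0.47, 0.45 and 0.33). Past the level minimum 54.2% of all genes were above 0 there, and 42 of the 58 members were, so this does not set these genes apart. Mrps5 was at 5.61, 6.08 and 5.72, highest at the low dose. The head proteins were divided by Mrps14 and Mrps33, and the other 6 lay between −0.43 and 0.33 at the low dose; Mrps7, the head protein that starts assembly of this domain in bacteria, was at 4.996, 5.19 and 5.07. Mrps11, on the platform, was at 6.65, 6.55 and 6.80, lowest at the low dose. Mrps16, whose human counterpart is mutated in a fatal infantile disorder of respiration, was at 9.58, 9.66 and 9.52, almost level across the arrays. Mrps22, another disease gene, was below the level minimum throughout, at 3.93, 3.73 and 3.54.

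The Mrps18 genes encode 3 related proteins that take different places in the ribosome. Mrps18a, which sits in the large subunit, was at 5.62, 6.16 and 6.17, and Mrps18b at 5.67, 6.41 and 6.29; Mrps18c is not analysed here. Both were lowest on the unirradiated array, and their values on the irradiated arrays differed by 0.01 and −0.12 (high dose minus low dose). Mrps30, also a large subunit protein despite its symbol and known as a pro-apoptotic protein, was at 5.70, 6.33 and 6.07, in a like order. Mrps36, now known as a component of the oxoglutarate dehydrogenase complex and no ribosomal protein, was at 5.77, 5.65 and 6.07, highest at the high dose. The remaining 40 of the 76 members, outside the rule for named genes, spanned −0.53 (Mrpl49) to 0.99 (Mrpl13) in low dose minus unirradiated, with 30 above 0. In high dose minus unirradiated they spanned −0.54 (Mrps10) to 0.73 (Mrpl30), with 24 above 0, and in high dose minus low dose −0.61 (Mrpl19) to 0.45 (Mrpl30), with 20 above 0. Over all named genes the shares above 0 in these comparisons were 47.4%, 46.6% and 49.9%, in the same order. The ends other than Mrpl30 belong to genes below the level minimum by their mean.

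Genes of conserved and of mitochondria-specific proteins had medians close to each other at 0.02 Gy. These classes follow the assignment by structure. The specific classes therefore also hold genes that were not chosen by symbol: Dap3, Ptcd3 and Chchd1 (small subunit) and Gadd45gip1 (large subunit). At the low dose the median of genes past the level minimum was 0.22 for 22 conserved and 0.23 for 17 specific large subunit proteins, and 0.16 for 14 conserved and 0.23 for 8 specific small subunit proteins. At the high dose it was 0.05 for conserved (14 of 22 above 0) and 0.19 for specific large subunit proteins (13 of 17), where 53.4% of all genes were above 0, and −0.01 and −0.03 for the small subunit. In high dose minus low dose, all 8 specific small subunit genes past the minimum were below 0, from −0.74 (Ptcd3) to −0.12 (Mrps18b), where 49.4% of all genes past it were above 0. Dap3, Ptcd3 and Chchd1 are among these 8. Over all 13 measured, whatever their level, 11 were below 0, with Mrps27 and Mrps31 above. Of the 14 conserved ones past the minimum 10 were below 0.

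The genes that work beside the mitochondrial ribosome gave a mixed picture. At the low dose the median over genes past the level minimum was 0.16 for 18 assembly factors, 0.12 for 9 translation factors, 0.09 for 9 genes of mitochondrial transcription and RNA handling, and −0.03 for 12 mitochondrial aminoacyl-tRNA synthetases. No gene of these 4 lists past the level minimum was at least 2-fold different in any comparison, where 2.47% (low dose), 1.73% (high dose) and 2.5% (high dose minus low dose) of all genes past the minimum were. Below the minimum, the assembly factor Nsun4 was at 3.57, 3.46 and 4.56, a difference of 1.09 in high dose minus low dose; it is named after its values were seen. Among assembly factors, Mterf3 was highest at the low dose (0.67) and Rbfa, which binds the small subunit during maturation, lowest (−0.73). Rbfa was at 5.72, 4.99 and 4.90, low on both irradiated arrays as Mrps14 was. The translation factor genes were led by Gfm2, the factor that splits the subunits after termination, at 4.81, 5.68 and 4.98. Tufm, which brings aminoacyl-tRNA to the ribosome, was the lowest, at 7.26, 6.47 and 6.85. At the high dose the medians of these 4 lists were −0.06, 0.06, −0.07 and 0.02.

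Among 3 groups of genes of like kind, complex I subunits came closest to the mitochondrial ribosome in the medians of the deposited values. Their median was 0.24 at the low dose (21 of 32 above 0, background 54.2%), 0.06 at the high dose and −0.08 in high dose minus low dose. Over all listed genes, complex I had median levels of 6.86, 7.23 and 7.04, against 5.27, 5.38 and 5.23 for the 76 members. The top level decile had a median of 0.19 at the low dose. The part of level in the values of these 3 groups was not tested. Mitochondrial import genes had 0.18, 0.25 and 0.05 (17 genes), so they were higher at the high dose than the ribosomal genes. Cytosolic ribosomal protein genes, whose many processed copies can share probes, had 0.10, 0.03 and −0.10 (42 genes). The complex I and cytosolic ribosome lists were taken by symbol. Genes that share only the form of the name, such as Rps19bp1, Rps23rg1, Rpl7l1 and Ndufa4, are therefore counted in them. No test of these differences between lists was possible.

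**Figure D4:**
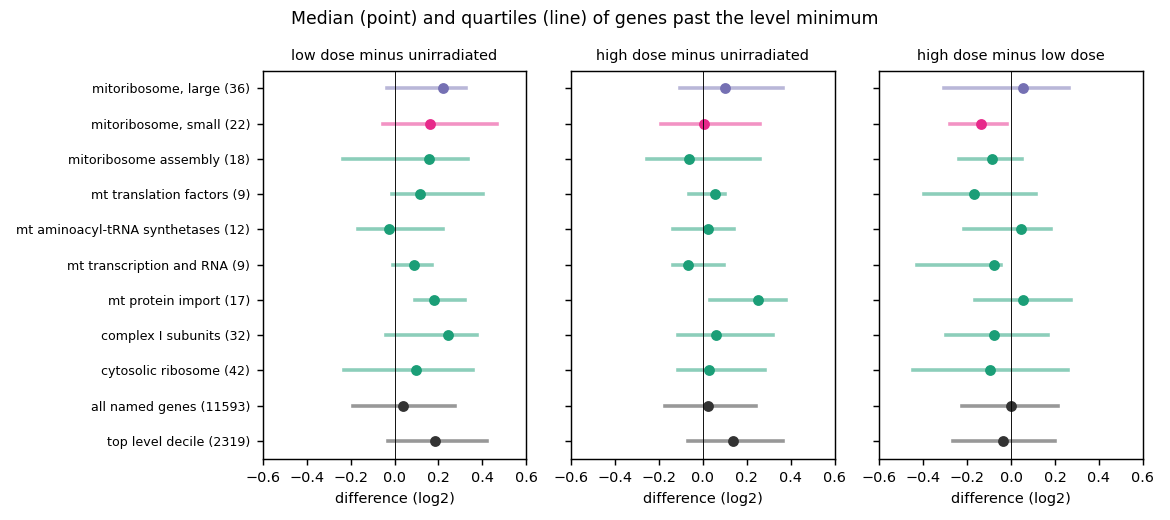
Median (point) and lower to upper quartile (line) of the difference in log2 value in each comparison, for genes past the level minimum, with the number of genes in brackets; mt stands for mitochondrial. Large and small mitochondrial ribosome lie right of all genes at the low dose, at 0.22 and 0.16 against 0.04, near complex I (0.24), import (0.18) and the top level decile (0.19).

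The start regions of these genes had features in common that the selection did not use. NRF1 and GABP are activators of nuclear genes for mitochondria. In windows of 250 bases before to 50 after the start, the NRF1 letters TGCGCA were in 22 of 73 promoters (30.1%), against 9.74% of 21262 promoters of protein-coding genes and 7.76% of all 32851. The ETS letters CCGGAAG were in 24 (32.9%), against 11.6% and 8.86%, and the YY1 letters AAGATGG in 13 (17.8%), against 6.24% and 6.34%. The E-box letters CACGTG were in 6 (8.22%), against 7.84% and 7.15%, all 6 in large subunit promoters; 3 of these are alternative starts of Mrpl2, so 4 genes hold the letters (Mrpl2, Mrpl20, Mrpl36 and Mrpl37). The member promoters also held more CpG, with a median of 21 per window against 13 in protein-coding genes, which bears on letters that contain CG. Mrps18a, shown for having both NRF1 and ETS letters close to its start, reads as follows over the 150 bases at chr17:46110854-46111003, plus strand.
Mrps18a: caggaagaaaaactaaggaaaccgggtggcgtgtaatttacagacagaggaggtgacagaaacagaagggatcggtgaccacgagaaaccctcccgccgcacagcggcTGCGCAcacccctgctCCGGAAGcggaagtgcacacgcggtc
Its matches begin 42 (NRF1) and 26 (ETS) bases before the start and do not overlap.

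Many of these genes start back to back with another gene. Of 67 with a promoter in the table, 22 (32.8%) had a protein-coding gene on the opposite strand starting within 1 kb and pointing away, against 8.48% of 17491 protein-coding genes. Mrpl46 and Mrps11 are such a pair, a large and a small subunit gene with starts 42 bases apart. The 41 bases between them, at chr7:78783090-78783130, minus strand, are printed because both genes face away from them.
Mrpl46 to Mrps11: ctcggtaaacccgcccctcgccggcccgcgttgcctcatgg
Mrpl46 was at 5.06, 5.39 and 5.18 and Mrps11 at 6.65, 6.55 and 6.80, so the low-dose value was the highest for Mrpl46 and the lowest for Mrps11. Mrps12 starts 147 bases from Sars2, the mitochondrial seryl-tRNA synthetase gene, which was at 5.73, 5.76 and 5.38 and so was lowest at the high dose, where Mrps12 was highest. Over the 22 pairings, counted from each member (so that Mrpl46 and Mrps11 enter from both sides), partner and member differed in the same direction in 11 at the low dose, 10 at the high dose and 12 in high dose minus low dose. In 14 of the 22 both genes lay past the level minimum. The same share over other head-to-head pairs was not counted, so these counts are a description only.

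**Figure D5:**
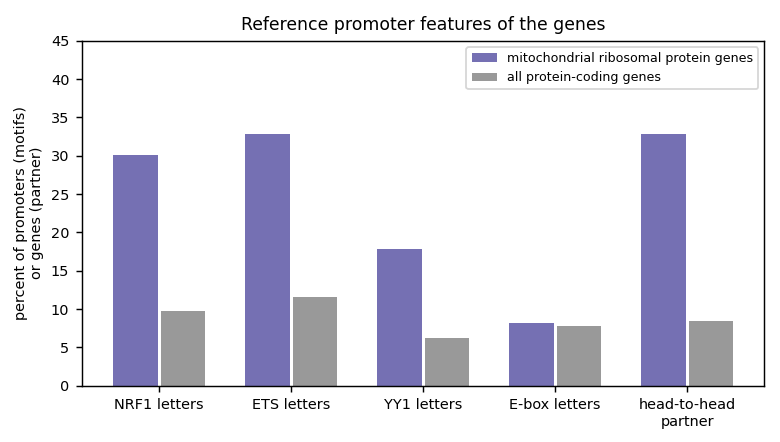
Percent of reference promoters holding each motif's letters, and percent of genes with a head-to-head protein-coding partner within 1 kb (vertical axis), for the mitochondrial ribosomal protein genes and for all protein-coding genes. The member bars are higher for NRF1 (30.1% against 9.74%), ETS (32.9% against 11.6%), YY1 (17.8% against 6.24%) and partners (32.8% against 8.48%), and about level for the E-box.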

How the data were processed

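Sorted stem cells were profiled on 3 arrays, with biotin-labelled target made by an Affymetrix whole-transcript sense assay, as the labels' protocols state. The authors deposited 1 log2 value per probe set and array, named by Entrez gene. Partek is named per the submitters' processing notes; which background correction and normalization were applied is not given in the sources used here. That values are log2 was judged by their range. Gene symbols came from the platform annotation: 23185 of 25206 probe sets had 1 symbol, and 2021 had none and were left out. Symbols were unique to a probe set. All 76 member symbols matched RefSeq.

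Differences were taken between arrays, with no test, since each dose has 1 array. Precision is limited by that number, and signal over background is unknown. Genes with a mean of at least 4.55 were past the level minimum (11593). Called genes differed at least 2-fold. Named members were the 3 highest and 3 lowest per subunit and comparison, those at least 2-fold different, and a list of role genes; 36 members met this rule. Of related lists the highest and lowest gene could be named. Alternatives were other level minimums and fold sizes, quantile normalization, median centring, loess (statsmodels 0.14.6, span 0.3), means, and subunits by structure. Counting and scaling were tested on simulated data. Members and lists were chosen with earlier results of these data known.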

Additional observations from a re-analysis of the deposited data

How the results depend on the processing

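No paired analysis was possible because no group had more than 1 array, and for the same reason no array could be left out. A list median counts as moved when it shifted by 0.1 or more. Of 63 alternative values of list medians 5 moved. Of these 5, 1 changed sign, as did 6 of the other 58. With the level minimum at the 75th percentile the small subunit median was 0.39 (low dose) and 0.14 (high dose), and the median of all members in high dose minus low dose was 0.0093. The large subunit median at the low dose was 0.087 after quantile normalization and 0.091 after loess. Without counting as moved, the small subunit value at the high dose was below 0 with means (−0.015) and by structure (−0.013). Without a level minimum it was −0.00096. The large minus small subunit median at the low dose became −0.17 at the 75th percentile, −0.041 after quantile normalization and −0.041 after loess, while in high dose minus low dose it stayed between 0.10 and 0.23. Counts move with fold size and level minimum by construction. At 1.5-fold they were 7 higher and 2 lower (low dose), 8 and 2 (high dose) and 1 and 3 (high minus low dose). At 3-fold, 0 were higher and 0 lower at the low dose, and 0 lower in high minus low dose. At the 75th percentile the counts were 0 throughout. Without a level minimum, 1 gene (Mrps33) was 2-fold higher at the high dose. Scaling changed no 2-fold call of the 36 named members and turned the sign of 12 of 324 values, none larger than 0.084. Where medians moved with scaling or level minimum, the cause was not tested.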

Other observations

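Mitochondrial ribosomal proteins that carry other symbols were read as well. Ptcd3, a protein at the messenger RNA entry of the small subunit, was at 4.99, 5.73 and 4.99 (unirradiated, low and high dose), so only the low-dose array stood apart. Dap3, a small subunit protein linked to cell death, was at 5.21, 5.43 and 5.16, and Chchd1 at 4.86, 5.18 and 4.91, with the low-dose value highest in each. Gadd45gip1, a large subunit protein, ran the other way, at 6.03, 5.76 and 6.16. The low-dose value was thus the highest for these 3 small subunit proteins, as for 13 of 22 Mrps symbols past the level minimum, and the lowest for Gadd45gip1. Of all genes past the minimum, 37.4% were highest on the low-dose array. These genes with other symbols were already counted above in the mitochondria-specific classes and in the assignment by structure, so they are no separate result.

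Members with and without each motif's letters in their promoter were set side by side. Past the level minimum, 15 members with the NRF1 letters had a median of 0.08 at the low dose and 37 without had 0.26. For the ETS letters the medians were 0.22 (17 with) and 0.23 (35 without), for YY1 0.32 (10 with) and 0.17 (42 without), and for the E-box 0.36 (3 with) and 0.20 (49 without). At the high dose the medians with and without were 0.05 and 0.15 (NRF1), 0.19 and 0.07 (ETS), 0.11 and 0.10 (YY1), and 0.45 and 0.07 (E-box). In high dose minus low dose they were −0.12 and 0.06, 0.06 and −0.13, 0.04 and −0.11, and 0.09 and −0.10, in the same order. The split was made after the motif counts were known, and with 1 array per dose the error of these medians is unknown.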
